A study of Homo sapiens with 12 samples.

Results

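Heat shock proteins are molecular chaperones, and 10 genes of this class, 8 for cytosolic and 2 for mitochondrial proteins, were followed in RNA sequencing of LX-2, an immortalised line of human hepatic stellate cells that serves in culture studies of liver scarring. The genes were taken by symbol from the gene table and were HSPA1A, HSPA1B, HSPA8, HSPH1, HSP90AA1, HSPB1, DNAJB1, BAG3, HSPD1 and HSPE1. They are 10 of 58735 genes in the table, and all 10 were among the 18560 genes with enough counts to be tested. The 12 libraries form 4 groups of 3. The SiNAT10_TGFB cells were transfected with siRNA against NAT10 with a lipid reagent and given TGF-β1 48 h later, at 5 ng/ml for 24 h. The SiNAT10 cells received the siRNA without TGF-β1, and no time between transfection and harvest is recorded here for them. The TGFB cells received the same TGF-β1 treatment without siRNA, and the con cells were untreated. All groups share the wild-type LX-2 line and the same serum-containing medium. No control siRNA group is named in the labels, so transfection and the knockdown of NAT10, an RNA cytidine acetyltransferase, cannot be told apart in the siRNA comparisons.

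In the cytosol, HSP70 proteins bind unfolded stretches of other proteins and release them in a cycle driven by ATP. J-domain proteins such as DNAJB1 bring substrates to HSP70 and start ATP hydrolysis, while nucleotide exchange factors such as the HSP110 protein HSPH1 and BAG3 reset the cycle. HSP90 takes over partly folded clients such as kinases and steroid receptors, and small heat shock proteins such as HSPB1 hold unfolding proteins without ATP and also bind the actin cytoskeleton. In the mitochondrial matrix, HSPD1 and HSPE1 form the HSP60 and HSP10 folding chamber. The transcription factor HSF1 binds heat shock elements, inverted repeats of the unit nGAAn, in the promoters of many of these genes. Hepatic stellate cells that turn into myofibroblasts under TGF-β1 secrete large amounts of matrix protein.

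Promoter sequences are shown for the genes on which the results below turn, since some of the 10 genes share their promoter design or face a neighbour. The 250 bases before each RefSeq start (GRCh38.p14) were searched on both strands for the 2-unit heat shock elements GAANNTTC and TTCNNGAA, and for the overlapping 3-unit elements GAANNTTCNNGAA and TTCNNGAANNTTC. Capitals mark the matches, each sequence is given 5′ to 3′ on the strand of its gene, and the last line is the plus strand. HSPA1A (chr6:31815293-31815542, plus strand) and HSPA1B (chr6:31827488-31827737, plus strand) encode the stress-inducible HSP70, HSPA8 (chr11:123062137-123062386, minus strand) the constitutive one, and HSPB1 (chr7:76302423-76302672, plus strand) the small heat shock protein HSP27. The stretch between the divergent starts of HSPD1 and HSPE1 is chr2:197500275-197500378.
HSPA1A: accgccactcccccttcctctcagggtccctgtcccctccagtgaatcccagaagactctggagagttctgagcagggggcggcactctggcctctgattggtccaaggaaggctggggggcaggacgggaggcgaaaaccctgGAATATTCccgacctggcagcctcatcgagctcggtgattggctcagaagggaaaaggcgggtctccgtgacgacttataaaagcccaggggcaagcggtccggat
HSPA1B: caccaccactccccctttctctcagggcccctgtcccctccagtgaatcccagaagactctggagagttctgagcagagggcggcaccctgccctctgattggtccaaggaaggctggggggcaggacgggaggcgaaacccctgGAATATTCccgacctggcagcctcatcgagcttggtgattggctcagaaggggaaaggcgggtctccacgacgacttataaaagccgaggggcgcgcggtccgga
HSPA8: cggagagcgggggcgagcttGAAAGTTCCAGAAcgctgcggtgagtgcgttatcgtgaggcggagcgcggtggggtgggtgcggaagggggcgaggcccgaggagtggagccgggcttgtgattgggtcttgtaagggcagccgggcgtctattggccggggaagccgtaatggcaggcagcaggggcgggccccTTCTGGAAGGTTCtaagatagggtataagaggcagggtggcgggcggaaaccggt
HSPB1: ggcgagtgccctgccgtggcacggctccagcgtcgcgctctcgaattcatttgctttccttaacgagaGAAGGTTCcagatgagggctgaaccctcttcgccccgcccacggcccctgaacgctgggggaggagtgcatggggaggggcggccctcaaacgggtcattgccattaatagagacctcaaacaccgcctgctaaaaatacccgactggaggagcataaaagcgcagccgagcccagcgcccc
HSPD1 to HSPE1: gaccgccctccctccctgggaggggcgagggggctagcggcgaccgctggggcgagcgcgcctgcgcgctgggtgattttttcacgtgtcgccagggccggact
Aligned over 251 columns, the HSPA1A and HSPA1B promoters were identical in 235 (93.6%), with 14 mismatches and 2 gaps, and each held the same 2-unit element, GAATATTC. HSPA8 held 4 such matches, which formed 2 elements of 3 units. The 104 bases between HSPD1 and HSPE1 held none, but a window upstream of another HSPD1 start held 3, with 2 of 3 units. In all, 7 of the 14 windows of the 10 genes held a 2-unit match. Counted by gene, 7 of the 10 had a 2-unit match in at least 1 window and 3 had a 3-unit match. HSPH1, BAG3 and HSPE1 had no match in these windows. Of 35116 RefSeq windows of this length, 11.6% held a 2-unit and 0.441% a 3-unit match. A match describes the letters and says nothing of HSF1 binding in these cells.

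The libraries held 25877008 to 28311434 counts in the siRNA groups and 29797990 to 35132582 in the untransfected groups, and levels are given as CPM, library-size-scaled counts adjusted by TMM. NAT10 stood at 19.2, 15.8 and 20.7 CPM in SiNAT10_TGFB cells, 19.5, 18.5 and 17.9 in SiNAT10 cells, 67.8, 65.6 and 67.5 in TGFB cells and 62.9, 68.8 and 69.9 in con cells, so that all 12 libraries matched their siRNA labels. NAT10 does not bear on the TGF-β1 labels. Stellate and mesenchymal markers summed to 4166 to 4334 CPM in SiNAT10_TGFB, 3124 to 3323 in SiNAT10, 11779 to 12481 in TGFB and 5296 to 5615 in con libraries. Most of this sum came from COL1A1, VIM, SPARC and TAGLN. ACTA2 stood at 2.73 to 5.63 CPM, COL1A2 at 0.609 to 7.12, RGS5 at 0.494 to 1.53 and PDGFRA at or below 0.497. LRAT, a marker of quiescent stellate cells, was at 0 in all libraries and DES reached at most 0.232 CPM. The 7 hepatocyte markers summed to 24.4 to 28.6 CPM in SiNAT10_TGFB, 23.1 to 24.6 in SiNAT10, 13.7 to 15.01 in TGFB and 15.2 to 19.0 in con libraries, nearly all of it SERPINA1, with ALB at or below 0.154 and TTR at 0. The 4 cholangiocyte markers summed to 40.6 to 43.7 CPM in SiNAT10_TGFB, 66.1 to 73.9 in SiNAT10, 41.3 to 44.3 in TGFB and 41.6 to 47.4 in con libraries, mostly SOX9, with KRT7 at 2.00 to 5.72, EPCAM at or below 0.261 and KRT19 at or below 0.179. The 5 macrophage and leukocyte markers summed to 3.69 to 4.95 CPM in SiNAT10_TGFB, 4.15 to 5.56 in SiNAT10, 1.27 to 2.50 in TGFB and 3.12 to 3.83 in con libraries, mostly CD14, with PTPRC at or below 0.154. The 5 endothelial markers summed to at most 2.30 CPM in any library. The hepatocyte sum was higher in both siRNA groups and the cholangiocyte sum in SiNAT10 alone, and their part in the results was not tested. Libraries also differed in their balance of GC-rich and GC-poor genes. The median centred log2 CPM of 2663 genes above 55% GC minus that of 3809 genes below 45% GC was −0.33 to −0.18 in SiNAT10_TGFB, −0.49 to −0.04 in SiNAT10, 0.17 to 0.38 in TGFB and 0.05 to 0.29 in con libraries. This trend follows the siRNA groups, and its part in the results was not tested. The siRNA changes of the 10 genes are therefore also given with the trend removed, but the ratios between genes and the changes of related chaperone genes are not. Fewer cells and less RNA per cell cannot be told apart in these bulk samples. The p-values below are from the quasi-likelihood test of edgeR, adjusted by Benjamini-Hochberg over the 18560 genes, with a threshold of 0.05. They measure the spread between libraries that the labels call biological replicates without naming separate cultures.

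Per length, HSPA8 was the most abundant of the 10 transcripts in every group, with 672 ± 36.5 FPKM in SiNAT10_TGFB, 623 ± 30.8 in SiNAT10, 614 ± 7.82 in TGFB and 511 ± 14.8 in con cells (SD, n = 3). HSP90AA1 came next, with 334 ± 14.5 FPKM in SiNAT10_TGFB, 350 ± 26.5 in SiNAT10, 256 ± 10.8 in TGFB and 271 ± 5.19 in con cells. HSPE1 had the lowest FPKM, with 18.3 ± 1.65 in SiNAT10_TGFB, 18.1 ± 0.678 in SiNAT10, 19.2 ± 1.16 in TGFB and 16.03 ± 0.237 in con cells. The FPKM divide by all exon bases of a gene. These are 1977 for HSPE1, whose longest transcript has 950 bases, and 2483 for HSPA1A, whose longest transcript has 2483. The order of genes in this paragraph, and the place of HSPE1 above all, depends on that choice of length. HSPD1 ranked above HSPB1 in SiNAT10_TGFB, SiNAT10 and con cells, whereas in TGFB cells HSPB1, at 219 ± 19.98 FPKM, lay above HSPD1, at 177 ± 8.89, with no overlap of the libraries. HSPH1 and BAG3 followed in all groups, and their libraries overlapped in SiNAT10 cells only. Among the remaining 3 genes, DNAJB1 was the lowest in both siRNA groups and the highest in con cells, with 30.9 ± 2.02 FPKM in SiNAT10_TGFB, 30.2 ± 0.792 in SiNAT10, 32.4 ± 0.944 in TGFB and 35.2 ± 0.309 in con cells. HSPA1B and DNAJB1 overlapped in SiNAT10_TGFB cells and HSPA1A and HSPA1B in SiNAT10 cells, and all other neighbours in these orders were separate. Together the 10 genes took 0.658 to 0.724% of all counts in the siRNA libraries and 0.566 to 0.587% in the untransfected ones. These shares are not adjusted by TMM. The TMM factors, 0.92 to 0.93 in TGFB and 1.04 to 1.07 in SiNAT10 libraries, narrow the gap between these 2 groups.

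**Figure D1:**
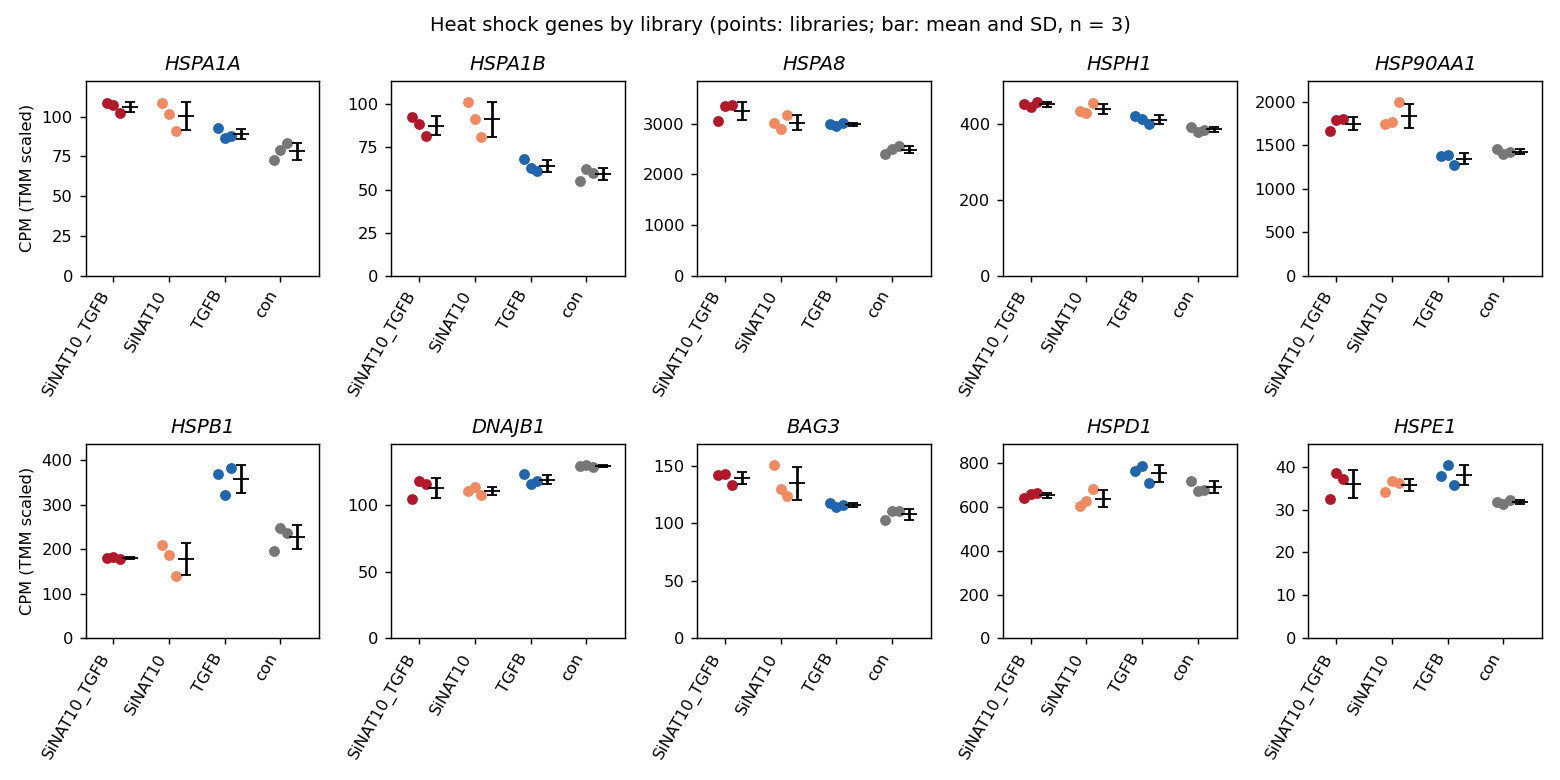
TMM-scaled CPM of the 10 heat shock genes in each library. The groups run from left to right as SiNAT10_TGFB, SiNAT10, TGFB and con, points are libraries, and bars give the mean and SD of 3. HSPA1A, HSPA1B, HSPA8, HSPH1, HSP90AA1 and BAG3 sit higher in both siRNA groups than in the untransfected group they are set against. The TGFB points of HSPB1, at 322 to 384 CPM, stand above all others of that gene.

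SiNAT10_TGFB and TGFB cells show how the siRNA changed these genes under TGF-β1. Of the 10 genes, 6 rose, the HSP70 genes HSPA1A, HSPA1B and HSPA8, HSPH1, BAG3 and HSP90AA1, while HSPB1 and HSPD1 fell and DNAJB1 and HSPE1 did not pass the test. Among all genes tested, 53.1% passed in either direction (26.3% higher, 26.8% lower), and among the 4842 genes of at least 50 CPM 73.1% did. The 8 of 10 called here are therefore not far from the background. The groups did not overlap for 8 of the 10 genes, against 60.6% of all genes. The median log2 change of the 10 genes was 0.13, against 0.01 for all genes, and the median of its absolute value was 0.23, against 0.44. With the GC trend removed, 6 of the 8 calls held in the same direction, HSPA8 and HSPH1 lost theirs, HSPE1 passed as lower, and the median was −0.03. Scaling by library size alone put the median of all genes at 0.14, ended the call of HSPD1 and gave larger values for HSPA1A (0.38), HSPA8 (0.25) and HSPH1 (0.27).

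Without TGF-β1, the SiNAT10 and con groups gave the same count, 6 of 10 higher and 2 lower, against 52.8% of all genes called (26.4% higher, 26.4% lower) and 72.6% of those of at least 50 CPM. The 6 that rose were again HSPA1A, HSPA1B, HSPA8, HSPH1, BAG3 and HSP90AA1. HSPB1 and DNAJB1 fell, and HSPD1 and HSPE1 did not pass. The groups did not overlap for 8 of the 10 genes and for 57.7% of all genes. The median log2 change was 0.24, against 0.02 for all genes. With the GC trend removed, 6 of the 8 calls held, HSPH1 lost its call, HSPB1 was called in the opposite direction, HSPD1 passed as lower, and the median was 0.13. The siRNA comparisons do not share libraries, and no gene of the 10 passed the test for a difference between them except HSPB1, described below.

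TGF-β1 without siRNA raised 3 of the 10 genes, HSPA8, HSPB1 and HSPE1, and lowered none, where 24.1% of all genes were called (11.9% higher, 12.2% lower) and 36.7% of those of at least 50 CPM. This comparison shares its TGFB libraries with the first comparison above and its con libraries with the second, so the 3 are not independent. The groups did not overlap for 8 of 10 genes, against 40.8% of all genes. The median log2 change was 0.12, against −0.01 for all genes. All 3 calls held with the GC trend removed, which added HSPA1A, HSPH1 and HSPD1 as higher and DNAJB1 as lower. In siRNA cells, SiNAT10_TGFB against SiNAT10, edgeR called none of the 10, where 11.1% of all genes passed (5.92% higher, 5.15% lower). The quasi-likelihood p of edgeR before adjustment was under 0.05 for HSPA8 alone, at 0.0364. DESeq2 and limma also called none, and the log2 changes lay between −0.07 and 0.11. The groups overlapped for all 10 genes, against 23.4% of all genes without overlap.

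**Figure D2:**
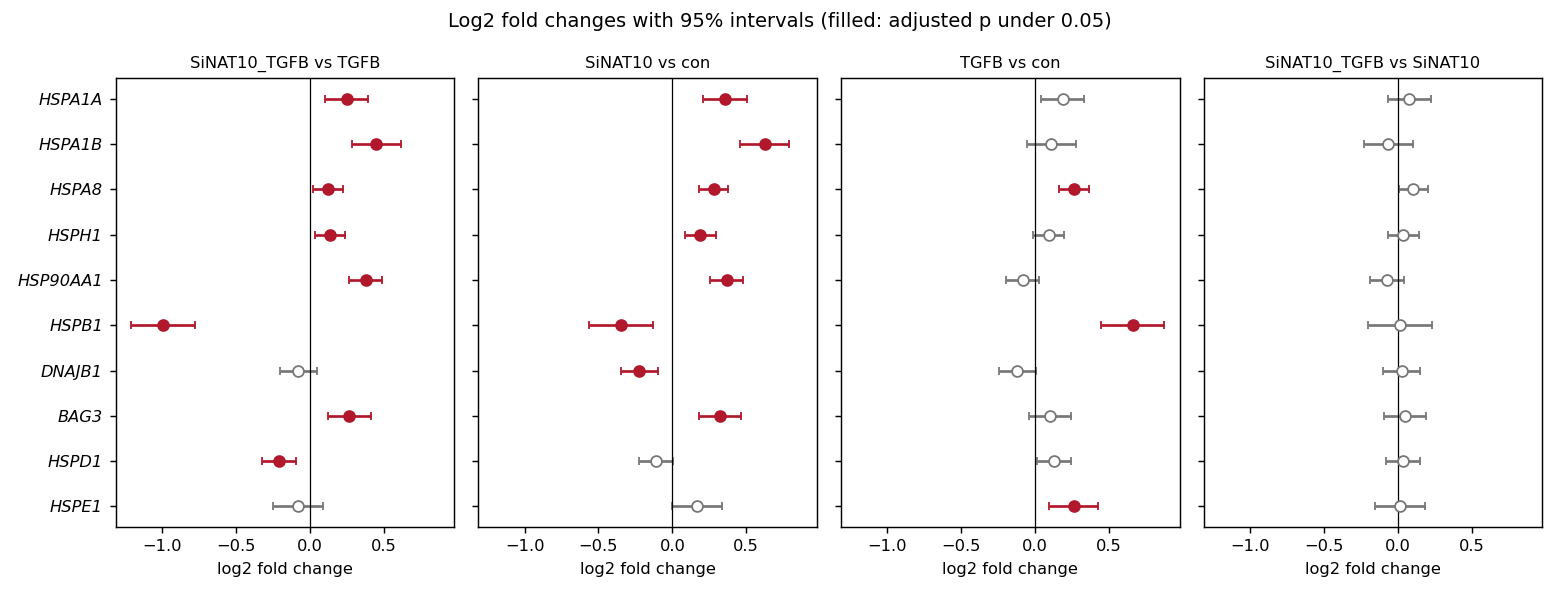
Log2 fold changes of the 10 genes in the 4 comparisons, with 95% intervals from the quasi-likelihood fit. Filled points passed an adjusted p under 0.05: 8 for SiNAT10_TGFB against TGFB, 8 for SiNAT10 against con, 3 for TGFB against con and none for SiNAT10_TGFB against SiNAT10. HSPB1 has the widest range, between −0.99 and 0.66.

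Both genes for the inducible HSP70 were higher with the siRNA. HSPA1A (ENSG00000204389; hg38 chromosome 6, 31815464 to 31817946) measured 109, 107 and 102 CPM in SiNAT10_TGFB, 108, 102 and 90.8 in SiNAT10, 92.8, 86.9 and 87.9 in TGFB and 72.7, 79.1 and 83.4 in con libraries. Neither siRNA group overlapped the untransfected group it is set against, and the TGFB libraries lay above the con libraries. HSPA1A rose by a log2 fold change of 0.25 with the siRNA under TGF-β1 (SE 0.071, adjusted p = 0.00475) and of 0.36 without it (SE 0.071, adjusted p = 0.000187). TGF-β1 without siRNA gave 0.19 (SE 0.071, adjusted p = 0.060). This value stayed uncalled in 16 of 23 alternative settings and passed as higher in the rest, among them DESeq2 (adjusted p = 0.0464). HSPA1B (ENSG00000204388; chromosome 6, 31827735 to 31830255), the neighbouring gene for the same protein, stood at 92.1, 88.1 and 81.2 CPM in SiNAT10_TGFB, 101, 91.2 and 80.8 in SiNAT10, 67.8, 62.9 and 60.7 in TGFB and 55.1, 62.3 and 59.9 in con libraries. All 6 siRNA libraries lay above all 6 untransfected ones. HSPA1B rose by 0.45 under TGF-β1 (SE 0.080, adjusted p = 4.82e-05) and by 0.62 without it (SE 0.080, adjusted p = 6.52e-07), the largest increases of the 10 genes in these comparisons. With the GC trend removed, the siRNA changes were 0.62 and 0.73 for HSPA1A and 0.78 and 0.95 for HSPA1B.

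How the counts split between these copies is uncertain, because 72.6% of the 50-base stretches of the HSPA1A transcript and 73.5% of those of HSPA1B also occur in other genes, nearly all in the partner. Summed as a single gene, they rose by 0.34 in SiNAT10_TGFB against TGFB cells (adjusted p = 0.000280) and by 0.48 in SiNAT10 against con cells (adjusted p = 4.33e-06), and the change was 0.15 in TGFB against con cells (adjusted p = 0.119). With the GC trend removed, the siRNA changes of the sum were 0.69 under TGF-β1 and 0.83 without it. HSPA1B made up 45.9, 45.1 and 44.3% of the summed counts in SiNAT10_TGFB, 48.2, 47.3 and 47.1% in SiNAT10, 42.2, 42.0 and 40.9% in TGFB and 43.1, 44.1 and 41.8% in con libraries. The share was higher in each siRNA group than in its untransfected counterpart, without overlap. An exact two-sided permutation test gave p = 0.1 for both, the smallest value that 3 libraries against 3 allow (0.2 after adjustment over 12 ratio comparisons). AL671762.1, which overlaps 36.5% of the HSPA1B exon bases on the same strand, had no count in any library. HSPA1L, the third HSP70 gene of this locus, had 53 to 96 counts in SiNAT10_TGFB, 64 to 69 in SiNAT10, 110 to 148 in TGFB and 73 to 87 in con libraries.

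**Figure D3:**
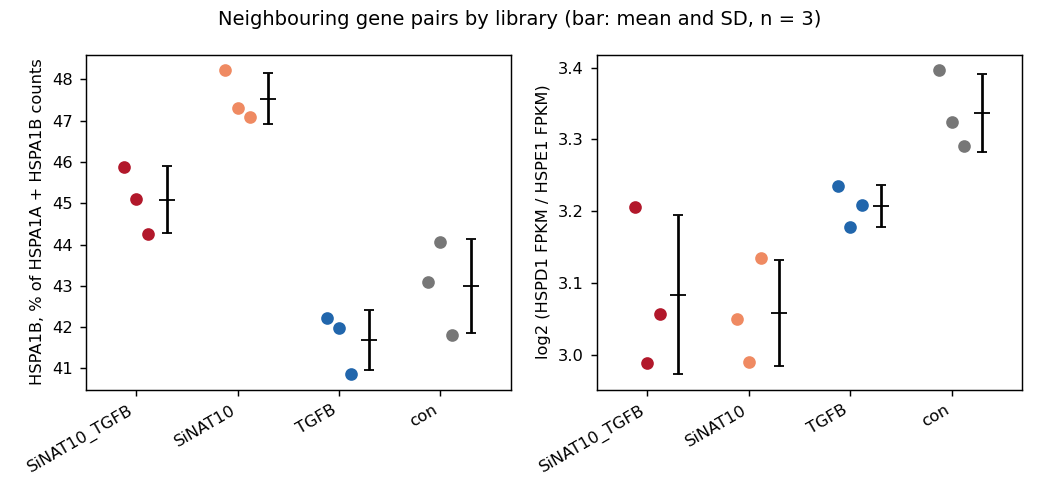
Left, HSPA1B counts as a percentage of HSPA1A plus HSPA1B counts by library. Right, the log2 ratio of HSPD1 to HSPE1 FPKM. Points are libraries, bars the mean and SD of 3, and neither axis starts at 0. The HSPA1B share runs from 40.9 to 44.1% in untransfected and from 44.3 to 48.2% in siRNA libraries.

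HSPA8, the constitutive HSP70 (ENSG00000109971; chromosome 11, 123057489 to 123063230), stood at 3047, 3340.0 and 3367 CPM in SiNAT10_TGFB, 3002, 2886 and 3174 in SiNAT10, 2996, 2947 and 3009 in TGFB and 2405, 2506 and 2548 in con libraries. The con libraries were the lowest 3 of the 12. HSPA8 rose in SiNAT10 cells by 0.28 (SE 0.048, adjusted p = 2.89e-05) and in TGFB cells by 0.26 (SE 0.048, adjusted p = 0.000187), each against the same con libraries. In SiNAT10_TGFB against TGFB cells it rose by 0.12 (SE 0.048, adjusted p = 0.0326). That last call was lost without any of the 3 TGFB replicates and without SiNAT10_TGFB replicate 2 or 3 (adjusted p = 0.0554 to 0.134). It was also lost with no filter on low counts (adjusted p = 0.108), with limma on log2(FPKM + 1) (adjusted p = 0.110) and with the GC trend removed (−0.01, adjusted p = 0.900). For SiNAT10 against con the change of HSPA8 without the trend was 0.12 (adjusted p = 0.0188). The ratio of the inducible HSPA1 sum to HSPA8 in CPM was higher by 0.21 on the log2 scale in SiNAT10_TGFB than in TGFB cells (exact permutation p = 0.1, 0.2 adjusted over the 12 ratio comparisons) and by 0.19 in SiNAT10 than in con cells (exact permutation p = 0.3, adjusted 0.36).

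Of the genes that drive the HSP70 cycle, HSPH1, the HSP110 exchange factor (ENSG00000120694; chromosome 13, 31134974 to 31162388), stood at 454, 446 and 459 CPM in SiNAT10_TGFB, 437, 430.1 and 457 in SiNAT10, 424, 413 and 400.1 in TGFB and 394, 381 and 385 in con libraries. All siRNA libraries lay above all untransfected ones. HSPH1 rose by 0.14 under TGF-β1 (SE 0.050, adjusted p = 0.0248) and by 0.19 without it (SE 0.050, adjusted p = 0.00268). Neither passed with the GC trend removed, at −0.05 (adjusted p = 0.390) and −0.00 (adjusted p = 0.989), and the call under TGF-β1 was also lost with no filter on low counts (adjusted p = 0.125) and without TGFB replicate 2 or 3 or SiNAT10_TGFB replicate 3 (adjusted p = 0.0581 to 0.1003). BAG3, an exchange factor that also links HSP70 to HSPB8 and to selective autophagy (ENSG00000151929; chromosome 10, 119651370 to 119677819), stood at 142, 143 and 134 CPM in SiNAT10_TGFB, 151, 129.6 and 124 in SiNAT10, 118, 114 and 116 in TGFB and 103, 111 and 111 in con libraries. Here too the 6 siRNA libraries were the highest. BAG3 rose by 0.27 under TGF-β1 (SE 0.069, adjusted p = 0.00202) and by 0.32 without it (SE 0.069, adjusted p = 0.000411), and by 0.50 and 0.55 with the GC trend removed.

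DNAJB1, the J-domain partner of the inducible HSP70 (ENSG00000132002; chromosome 19, 14514770 to 14529770), did not follow HSPA1A and HSPA1B. It stood at 105, 118 and 116 CPM in SiNAT10_TGFB, 111, 114 and 108 in SiNAT10, 123, 116 and 118 in TGFB and 129.6, 131 and 129 in con libraries. The con libraries were the highest 3, and SiNAT10_TGFB overlapped TGFB. DNAJB1 fell by 0.22 in SiNAT10 against con cells (log2 scale, SE 0.060, adjusted p = 0.00338). The change was −0.08 in SiNAT10_TGFB against TGFB cells (SE 0.061, adjusted p = 0.298) and −0.12 in TGFB against con cells (SE 0.060, adjusted p = 0.167). With the GC trend removed, DNAJB1 gave −0.24 in SiNAT10 against con cells and −0.07 in SiNAT10_TGFB against TGFB cells, and TGFB against con passed at −0.16. TECR on the opposite strand overlaps 5.75% of the DNAJB1 exon bases, and the sources used here do not say whether the counting used strand.

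HSP90AA1, the inducible HSP90 (ENSG00000080824; chromosome 14, 102080738 to 102139699), separated both siRNA groups from both untransfected ones. It stood at 1661, 1785 and 1801 CPM in SiNAT10_TGFB, 1746, 1773 and 1999 in SiNAT10, 1377, 1383 and 1275 in TGFB and 1455, 1400.5 and 1421 in con libraries. The lowest siRNA library was above the highest untransfected one, and the TGFB libraries lay just below the con libraries. HSP90AA1 rose by 0.38 under TGF-β1 (SE 0.054, adjusted p = 2.84e-06) and by 0.37 without it (SE 0.054, adjusted p = 4.61e-06), and TGF-β1 without siRNA gave −0.08 (SE 0.054, adjusted p = 0.292). The siRNA changes were 0.24 and 0.21 once the GC trend was removed, both still called. Scaling by library size alone turned the TGF-β1 value into a call, at −0.22. The sister gene HSP90AB1, which is expressed constitutively, averaged 1816 ± 60.1 CPM in SiNAT10_TGFB, 1673 ± 53.0 in SiNAT10, 1704 ± 21.0 in TGFB and 1433 ± 30.6 in con cells (SD, n = 3). It rose in SiNAT10 cells by 0.22 and in TGFB cells by 0.25 (adjusted p = 0.000199 and 0.000164), each against con.

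HSPB1 (ENSG00000106211; chromosome 7, 76302544 to 76304295) had the largest change of the 10 genes in SiNAT10_TGFB against TGFB and in TGFB against con cells. In the former it fell while 6 of the 10 rose, and in the latter its value was positive, as for most of them. In SiNAT10 against con cells HSPA1A, HSPA1B and HSP90AA1 changed more. HSPB1 stood at 180.0, 182 and 179 CPM in SiNAT10_TGFB, 209.5, 187 and 139 in SiNAT10, 369, 322 and 384 in TGFB and 196, 248 and 236 in con libraries. The 3 TGFB libraries were above all others, the SiNAT10_TGFB libraries lay close together, and the SiNAT10 libraries spread widely and overlapped the con libraries. TGF-β1 raised HSPB1 by 0.66 in untransfected cells (log2 scale, SE 0.104, adjusted p = 3.46e-05). With the siRNA the TGF-β1 change was 0.01 (95% interval −0.20 to 0.23, adjusted p = 0.966). The test of this difference, the interaction, gave −0.65 (SE 0.147, adjusted p = 0.0108), and HSPB1 was the only gene of the 10 to pass it, where 3.85% of all genes passed (1.94% higher, 1.91% lower). Under TGF-β1 HSPB1 fell by 0.99 with the siRNA (SE 0.105, adjusted p = 3.21e-08), to a level 49.7% lower.

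The HSPB1 transcript, at 64.3% GC, is the GC-richest of the 10, and both siRNA values of HSPB1 moved more than those of any other of the 10 genes when the GC trend was removed. With the trend removed, the interaction was −0.61 (adjusted p = 7.37e-06), the TGF-β1 change in untransfected cells stayed called, and the fall in SiNAT10_TGFB against TGFB cells was −0.47. In SiNAT10 against con cells, HSPB1 fell by 0.34 (SE 0.104, adjusted p = 0.00790), but this value was 0.14 with the trend removed, in the opposite direction (adjusted p = 0.0435), and −0.19 without SiNAT10 replicate 3 (adjusted p = 0.0471). That library had the lowest HSPB1 level of the 12, 139 CPM, and the lowest value of GC-rich against GC-poor genes, −0.49. The interaction did not pass when limma was run on log2(FPKM + 1), at −0.62 (adjusted p = 0.110).

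**Figure D4:**
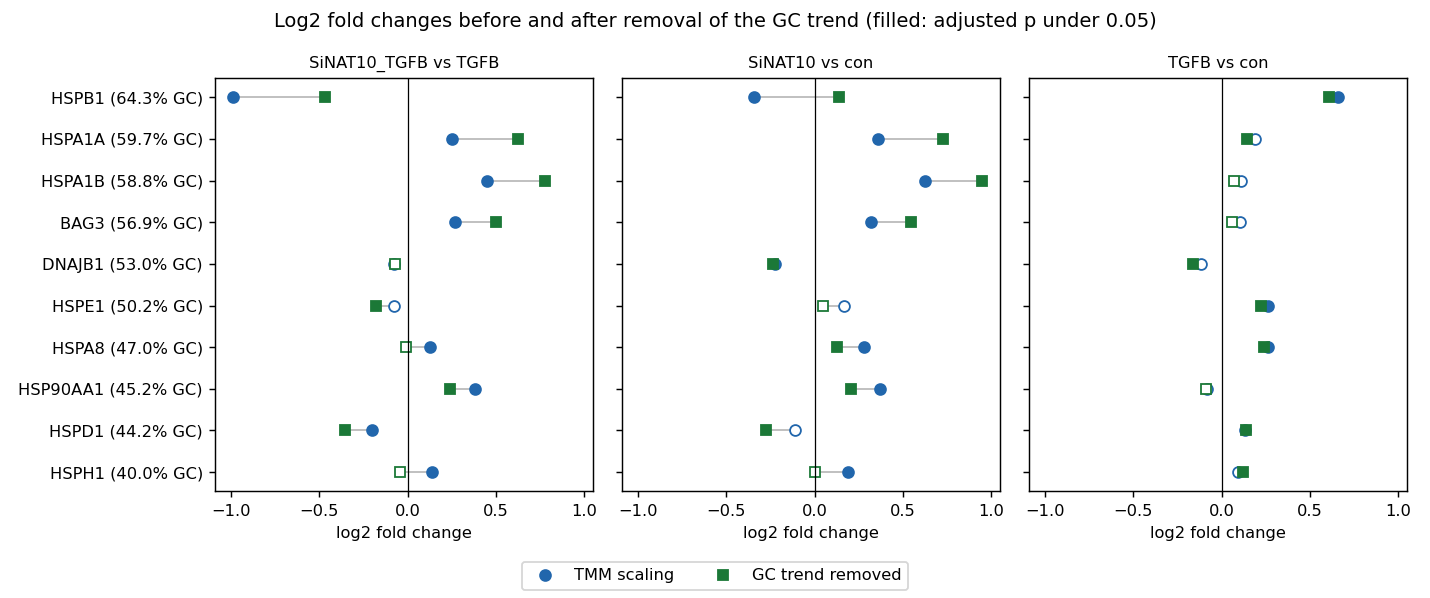
Log2 fold changes of the 10 genes with TMM scaling (circles) and with each library's GC trend removed (squares), ordered from the GC-richest transcript at the top. Filled symbols passed an adjusted p under 0.05. In both siRNA comparisons, left and middle, GC-rich genes such as HSPB1, HSPA1A and HSPA1B move right and GC-poor ones such as HSPH1 and HSPD1 move left, while the TGFB against con values, right, hardly move.

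The mitochondrial pair lies head to head on chromosome 2. HSPD1, which encodes HSP60 (ENSG00000144381; 197486581 to 197516737), stood at 642, 659 and 664 CPM in SiNAT10_TGFB, 606, 627 and 685 in SiNAT10, 767, 787 and 710.4 in TGFB and 721, 672 and 677 in con libraries. SiNAT10_TGFB lay below TGFB without overlap, whereas SiNAT10 overlapped con, TGFB overlapped con and SiNAT10_TGFB overlapped SiNAT10. HSPD1 fell by 0.21 in SiNAT10_TGFB against TGFB cells (SE 0.056, adjusted p = 0.00336), with −0.11 in SiNAT10 against con cells (adjusted p = 0.102) and 0.13 in TGFB against con cells (adjusted p = 0.0971). Both siRNA changes were called with the GC trend removed, at −0.36 and −0.27. With library size scaling the value under TGF-β1 was −0.08 (adjusted p = 0.272). HSPE1, which encodes HSP10 (ENSG00000115541; 197499994 to 197503457), stood at 32.4, 38.6 and 37.2 CPM in SiNAT10_TGFB, 34.1, 36.7 and 36.3 in SiNAT10, 37.9, 40.5 and 35.8 in TGFB and 31.9, 31.2 and 32.2 in con libraries. The con libraries were the lowest 3 of the 12, with SiNAT10_TGFB replicate 1 just above them. HSPE1 rose by 0.26 in TGFB against con cells (SE 0.081, adjusted p = 0.0203), a call that was lost without con replicate 1 or 2 or TGFB replicate 1 or 2 (adjusted p = 0.0508 to 0.120) and with library size scaling (0.13, adjusted p = 0.260). Its siRNA changes were −0.08 under TGF-β1 (adjusted p = 0.433) and 0.17 without it (adjusted p = 0.0878). The value under TGF-β1 passed at −0.18 with the GC trend removed (adjusted p = 0.0438), where the value without TGF-β1 was 0.05 (adjusted p = 0.637). With library size scaling the value without TGF-β1 passed at 0.22 (adjusted p = 0.0251).

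The log2 ratio of HSPD1 to HSPE1 FPKM was 3.21, 2.99 and 3.06 in SiNAT10_TGFB, 3.05, 2.99 and 3.14 in SiNAT10, 3.24, 3.18 and 3.21 in TGFB and 3.40, 3.32 and 3.29 in con libraries. Con libraries had the highest ratio of HSP60 to HSP10 transcripts. The mean was lower by 0.28 in SiNAT10 than in con cells and by 0.13 in TGFB than in con cells, both without overlap (exact permutation p = 0.1 each, 0.2 adjusted over the 12 ratio comparisons). HSPD1 and HSPE1 exons share 281 bases on opposite strands, 6.62% of the HSPD1 and 14.2% of the HSPE1 exon bases. Sequence is also shared with other genes, pseudogenes among them, since 24.8% of HSPD1 and 27.2% of HSPE1 50-base stretches occur elsewhere. For HSPE1 the gene sharing the most was HSPE1-MOB4, with 15.98% of the stretches. HSPE1-MOB4 is not a pseudogene but overlaps HSPE1 exons on the same strand, and it had no count in any library. The annotated copies held 1.23 to 2.34% of the HSPD1 and 1.73 to 4.85% of the HSPE1 counts per library. The HSPD1 pseudogene HSPD1P11, 1 of 11 HSPD1 copies with counts, had 25 to 56 counts in SiNAT10_TGFB, 59 to 75 in SiNAT10, 82 to 85 in TGFB and 230 to 237 in con libraries. HSPD1P1, the copy that shares the most sequence with HSPD1, had 156 to 188, 145 to 212, 200 to 243 and 206 to 253 in the same order. These counts are not scaled for the depth of the libraries.

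By their 4 group means of centred log2 CPM, the profile of HSPA1A lay nearest to that of BAG3 among the other members (root mean square distance 0.032), and the profiles of HSPB1 and HSPA1B lay farthest apart (0.635). Outside the 10 genes, 9640 genes of at least 10 CPM were ranked by the same distance. The nearest genes of HSPB1 were ANOS1 (0.0454), ZNF767P (0.0464) and FOXD1 (0.0522), farther away than those of the other members. The distance is not scaled for the size of the changes, which were large for HSPB1. ANOS1, like HSPB1, was highest in TGFB cells, with means of 14.2 CPM in SiNAT10_TGFB, 13.7 in SiNAT10, 28.2 in TGFB and 16.5 in con cells. The nearest gene of each other member lay at 0.0022 to 0.0110, among them PTS for HSPE1 (0.0022), RAB4A for BAG3 (0.0033), NR4A1 for DNAJB1 (0.0035), TBRG1 for HSPA1A (0.0037), CDC37 for HSPD1 (0.0041) and VBP1 for HSP90AA1 (0.0086). These distances rest on 4 group means and are a description.

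Related chaperone genes were counted in 8 lists, of which 93 of 99 genes were tested. In SiNAT10_TGFB against TGFB cells 37 of the 93 rose and 23 fell, in SiNAT10 against con 43 rose and 18 fell, and in TGFB against con 26 rose and 5 fell. Of all genes tested, 26.3% rose and 26.8% fell in SiNAT10_TGFB against TGFB, 26.4% rose and 26.4% fell in SiNAT10 against con, and 11.9% rose and 12.2% fell in TGFB against con. Among genes of at least 50 CPM, a level that many list genes exceed, 73.1%, 72.6% and 36.7% were called in either direction. The count of each list below is to be read against these shares. Where a pair of siRNA changes is given for a gene below, the value under TGF-β1 comes before the value without it. The median log2 changes over the 93 were 0.11, 0.17 and 0.12, against 0.01, 0.02 and −0.01 for all genes. Among 8 other cytosolic HSP70, HSP110 and HSP90 genes, 2 rose and 2 fell with the siRNA under TGF-β1, and 3 rose and 3 fell without it. HSPA4, another HSP110 protein, rose by 0.33 and 0.23, while HSPA2 fell by 1.46 and 1.23 and HSPA12A, a distant HSP70 relative, fell by 0.62 and 1.06 (adjusted p at most 0.00134 for these 6 values). HSPA6, the strictly stress-inducible human HSP70, averaged 1.68 ± 0.255 CPM in SiNAT10_TGFB, 1.85 ± 0.895 in SiNAT10, 0.934 ± 0.0598 in TGFB and 0.920 ± 0.195 in con cells. It passed the test in both siRNA comparisons at these low levels (log2 changes 0.84 and 1.01, adjusted p = 0.0414 and 0.0152).

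Of the other small heat shock proteins, only 3 of 7 were tested. HSPB8, the partner of BAG3, rose with TGF-β1 in untransfected cells by 0.86, as HSPB1 did, and it had a negative interaction of −0.49 (adjusted p = 0.0368). HSPB8 differed from HSPB1 in the siRNA comparisons, where it rose by 0.28 under TGF-β1 and by 0.76 without it (adjusted p = 0.0144 and 4.56e-07). Among 12 J-domain co-chaperones, 6 rose and 4 fell with the siRNA under TGF-β1, and 5 rose and 5 fell without it, where 53.1% and 52.8% of all genes were called. DNAJA1 rose by 0.47 in both, and DNAJC7 fell by 1.14 and 0.90. DNAJB5 and DNAJB2 rose with TGF-β1 by 0.50 and 0.46. Of 19 co-chaperones of HSP70 and HSP90, 8 rose and 3 fell under TGF-β1 and 8 rose and 2 fell without it, against the same 53.1% and 52.8% of all genes. BAG5, an exchange factor of the same family as BAG3, rose by 0.78 in both, and CHORDC1, an HSP90 cofactor, by 0.73 and 0.96. BAG6, which guards newly made membrane proteins, fell by 0.52 in both.

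The chaperonin and prefoldin genes, which fold actin and tubulin, rose in 7 of 14 cases and fell in 1 with the siRNA under TGF-β1, and rose in 10 and fell in none without it, against 26.3% of all genes higher and 26.8% lower under TGF-β1 and 26.4% each way without it. PFDN2 rose by 0.80 and 0.99. Of 15 mitochondrial chaperones and proteases, 8 rose and 2 fell under TGF-β1 and 9 rose and 1 fell without it, again where 53.1% and 52.8% of all genes were called. HSPD1 was lower in the siRNA cells under TGF-β1. GRPEL1, the exchange factor of mitochondrial HSP70, rose by 0.59 and 0.77, and the protease subunit SPG7 fell by 0.53 and 0.76. HSF1 was not called, at −0.02 and 0.12 (adjusted p = 0.849 and 0.247). HSF2 rose by 0.42 and 0.29, and HSF4, at 3.35 ± 0.668 CPM in SiNAT10_TGFB, 3.03 ± 0.250 in SiNAT10, 9.42 ± 1.13 in TGFB and 10.5 ± 0.649 in con cells, fell by 1.49 and 1.80. HSBP1, which binds and restrains HSF1, rose by 0.29 and 0.39.

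Chaperones of the endoplasmic reticulum, listed for contrast, went down with the siRNA under TGF-β1 in 10 of 18 cases and up in 3, and without TGF-β1 in 6 and 5, where 53.1% and 52.8% of all genes were called. TGF-β1 raised 11 of the 18 in untransfected cells and lowered none, against 11.9% of all genes higher and 12.2% lower. HYOU1, the HSP110 relative of this compartment, fell by 0.90 and 0.65 with the siRNA and rose by 0.58 with TGF-β1. DNAJB9, a J-domain protein of the unfolded protein response, rose by 1.53 and 1.64 with the siRNA. HSPA5, the HSP70 of this compartment, rose with TGF-β1 by 0.46 (adjusted p = 3.00e-08).

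**Figure D5:**
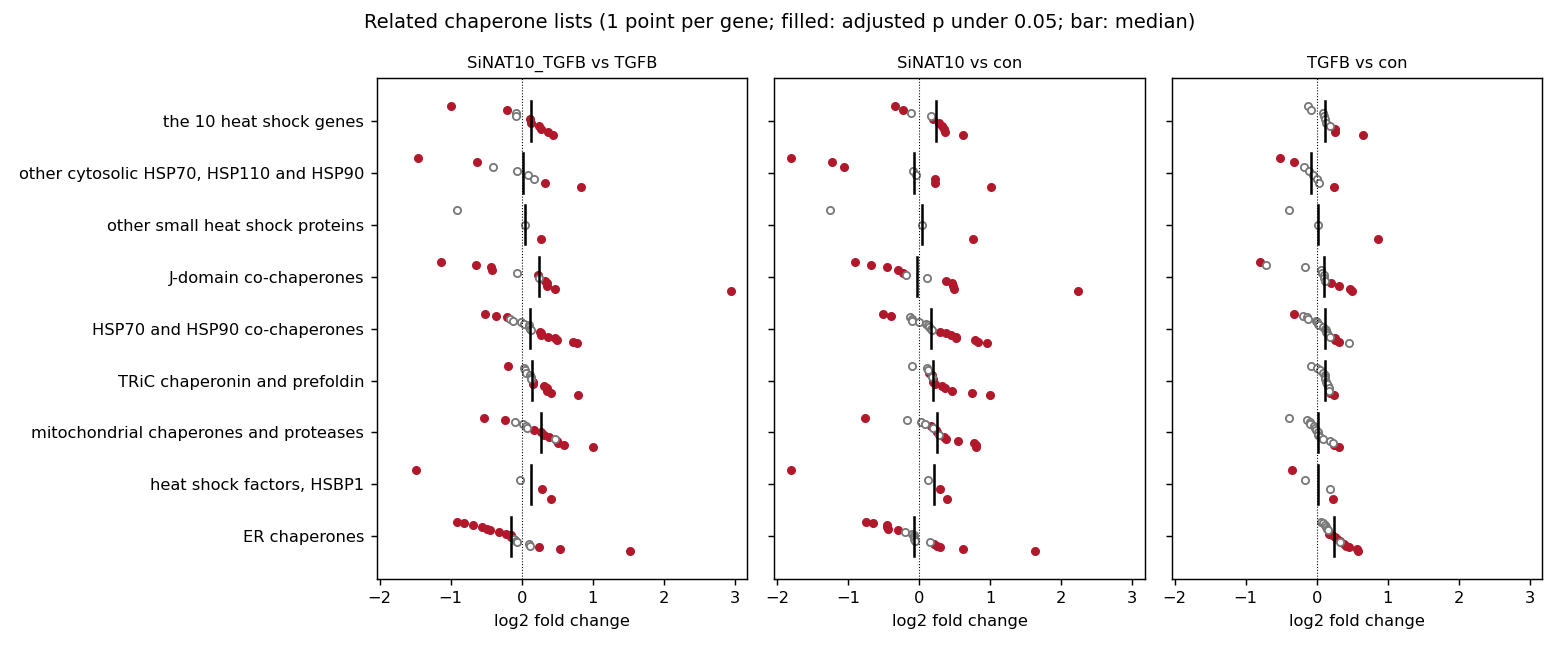
Log2 fold changes of the 10 heat shock genes (top row) and of 8 lists of related chaperone genes, 1 point per gene, filled where the adjusted p was under 0.05, with a bar at the median. The point at 2.94 in the left panel is DNAJA4, chosen here after its value was seen, which averaged 0.848 CPM in SiNAT10_TGFB and 0.108 CPM in TGFB cells. The median of the endoplasmic reticulum genes is −0.15 in the left panel, with genes on both sides of 0, and 0.24 in the TGFB against con panel, where all 18 lie right of 0.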

How the data were processed

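Per the submitters' processing notes, the tools used on the reads included fastp and HISAT2 2.2.1, and the build was hg38. The gene counts and FPKM values of 58735 genes in 12 libraries are the authors' own, as deposited. No source used here names the counting tool, the annotation or the strand setting. All genes had the same start and end as in GENCODE release 29, which gave exons, overlaps and transcript GC content. The deposited FPKM were proportional to the counts within each library and served for levels between genes and for an alternative.

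Counts were tested with edgeR 4.0.16 (R 4.3.3), with filterByExpr defaults, TMM scaling and a single quasi-likelihood fit of 4 group means. Each of 5 contrasts was adjusted by Benjamini-Hochberg over 18560 genes. The SE is the absolute log2 fold change divided by the square root of F. CPM of 3 counts was 0.0871 to 0.115, far below the levels of the 10 genes, and the biological coefficient of variation was 8.62%. Single ratios were compared by exact permutation. Promoters were searched in RefSeq sequences of GRCh38.p14.

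The 10 genes and the related lists were chosen with earlier results of these data known. In each list and contrast, at most the 2 called genes of smallest p in each direction were eligible to be named. The named pseudogenes and neighbours are only some of those that share sequence, exons or a locus with the 10 genes. HSF1 and DNAJA4 are named outside this rule. AHSA2 was not matched, and CRYAB, HSPB2, HSPB3, HSPB7 and HSF5 did not pass the filter. The pipeline was tested on simulated data with fewer changed genes, a smaller spread between libraries and no GC trend. That test does not show how reliable the calls here are. Alternatives were RLE and library size scaling, no filter, DESeq2 1.42.0, limma 3.58.1 on log2(FPKM + 1), only the groups compared, a replicate block, removal of a GC spline of 5 degrees of freedom per library, summed copies and omission of each library.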

Additional observations from a re-analysis of the deposited data

Results flagged for a closer look

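A difference between conditions stood out for HSPB1, the small heat shock protein HSP27. Its response to TGF-β1 differed with the siRNA by a log2 value of −0.65 (SE 0.147, edgeR quasi-likelihood interaction, adjusted p = 0.0108). The level was 180.2 ± 1.64 CPM in SiNAT10_TGFB, 179 ± 36.2 in SiNAT10, 358 ± 32.2 in TGFB and 227 ± 27.1 CPM in con cells (SD, n = 3). The highest of the 3 SiNAT10_TGFB libraries, at 182 CPM, lay below the lowest TGFB library, at 322 CPM. No group had 4 or more libraries, so single libraries were not screened for outlying values.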

How the results depend on the processing

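The siRNA increases of HSPA1A, HSPA1B, BAG3 and HSP90AA1, the falls of HSPB1 under TGF-β1 and of DNAJB1 without it, and the TGF-β1 increases of HSPA8 and HSPB1 in untransfected cells kept their direction and their call in each alternative run. Library size scaling lost the calls of HSPD1 (SiNAT10_TGFB against TGFB) and HSPE1 (TGFB against con), leaving 1 gene lower in SiNAT10_TGFB against TGFB, and added 2 lower in TGFB against con. It also turned values that were not called in either fit. In SiNAT10_TGFB against TGFB these were DNAJB1 (0.052) and HSPE1 (0.050). In TGFB against con they were HSPD1 (−0.0063), HSPH1 (−0.044), BAG3 (−0.033) and HSPA1B (−0.024). In SiNAT10_TGFB against SiNAT10 they were HSPD1 (−0.027), HSPH1 (−0.023), HSPB1 (−0.048), BAG3 (−0.0095), DNAJB1 (−0.034), HSPE1 (−0.048) and the HSPA1A and HSPA1B sum (−0.047), and in the interaction HSPH1 (0.022) and BAG3 (0.024). Removing the GC trend turned HSPA8 (−0.0077) and HSPH1 (−0.046) in SiNAT10_TGFB against TGFB, HSPH1 (−0.00092) and HSPB1 (0.14) in SiNAT10 against con, and DNAJB1 (−0.0040), HSPE1 (−0.0028) and the HSPA1A and HSPA1B sum (−0.026) in SiNAT10_TGFB against SiNAT10, and gave 6 genes higher and 1 lower in TGFB against con. The GC fit with the replicate block gave HSPA8 −0.0088, HSPH1 −0.046 and −0.0018, HSPB1 0.14 (adjusted p = 0.0602), DNAJB1 −0.0045, HSPE1 −0.0041 and the sum −0.026 for the same values, with 6 higher and 1 lower. Fitting only the compared groups raised the higher genes in TGFB against con to 5, with the HSPA1A and HSPA1B sum called at 0.16. With limma on FPKM, 0 of the 10 heat shock genes were called in the interaction. Giving HSPA1B the summed counts turned its value in SiNAT10_TGFB against SiNAT10 to 0.014. Leaving out single libraries gave, for SiNAT10_TGFB against SiNAT10, ranges of −0.0014 to 0.087 for HSPD1, −0.14 to 0.15 for HSPB1, −0.0080 to 0.14 for BAG3, −0.0064 to 0.082 for DNAJB1, −0.14 to 0.020 for HSPA1B, −0.038 to 0.087 for HSPE1 and −0.059 to 0.085 for the sum, and 0 to 1 genes called higher. The 1 was HSPA8, without SiNAT10_TGFB replicate 1. For the interaction the ranges were −0.023 to 0.076 for HSP90AA1 and −0.11 to 0.041 for BAG3. The causes were not tested.

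No pairing by replicate number was visible, with 0 of 18 same-numbered pairs having deviations correlated above 0.1 (r from −0.07 to 0.05, other pairs −0.07 to 0.09). These values cannot show whether same-numbered replicates were made in parallel. With the replicate block, all 55 values kept their direction and call, and the count in SiNAT10_TGFB against TGFB remained 6 higher and 2 lower. RLE scaling also left all 55 in place. Groups of 3 libraries limit the precision of changes of the size seen here.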
